A study of Mus musculus with 2 samples.

Results

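The respiratory chain genes examined here were the genes of the 8 count matrices whose symbols start with Nduf, Sdh, Uqcr, Cox4, Cox5, Cox6, Cox7, Cox8, Atp5 or mt-, provided that they had at least 100 UMIs (unique molecular identifiers, each standing for 1 captured molecule) over all matrices. The rule gave 106 of 19059 genes. Of these, 93 are encoded in the nucleus and 13 on the mitochondrial DNA. The nuclear members comprised 37 subunits of complex I, 8 assembly factors of complex I, 4 subunits and 4 assembly factors of complex II, 8 subunits of complex III, 18 of complex IV and 14 of complex V. Cox7b2, with 60 UMIs, and Cox8c, with 30, fell under the minimum, and Cox6b2, with 462, was the member closest above it. Ndufa4 and Ndufa4l2 carry complex I names, but their proteins belong with complex IV (cytochrome c oxidase), and they were counted there.

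The tumors came from a mouse glioblastoma stem cell line (mGSC) carrying Trp53+/- and Nf1+/-, a mesenchymal-like and fast-dividing line that was injected into the right striatum of C57BL/6J mice. All animals of both groups received this 1 line. One group was given vehicle and the other Xevinapant, a SMAC mimetic directed against the apoptosis inhibitors cIAP1, cIAP2 and XIAP, by daily oral gavage for a week, and tumors were taken right afterwards. The labels give 1 sample per group with 4 matrices each, no age, total RNA for vehicle and polyA RNA for Xevinapant. The names of the matrices deposited for Xevinapant contain Vehicle, and these matrices were placed in the Xevinapant group by their labels, so every direction between the groups rests on those labels.

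The matrices held 56943 cell barcodes, of which 54574 passed the filters, with 71835789 to 300206053 UMIs per matrix. Vehicle matrices 1 and 3, Xevinapant matrices 1 and 2, and Xevinapant matrices 3 and 4 had nearly the same makeup of classes, with a ratio of chi-square to its degrees of freedom of 1.30 to 1.68 against at least 5.22 for every other pair. In tumor expression these pairs differed 1.36 to 3.65 times as much as odd and even barcodes of a matrix do, and all other pairs at least 13.9 times. Each such pair was joined and counted as 1 sample, so that 5 units remained, 3 of vehicle and 2 of Xevinapant. Values over units are given throughout in the order vehicle 1+3, vehicle 2, vehicle 4, Xevinapant 1+2 and Xevinapant 3+4. Between 22.1% and 35.3% of the droplet barcodes of a matrix also occurred in another matrix of its pool. Batch date, pool, the labelled kind of RNA and treatment coincided and cannot be told apart. The design has 4 tumors per group, the same number as matrices, but the labels do not tie a matrix to an animal. P-values of treatment therefore measure the spread between these units. Between classes the unit is a block. P-values there measure how class differences vary from unit to unit, pooled over all classes of the fit. The fit of tumor states held 30 sums of unit and class, that of lineages 41.

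The respiratory chain passes electrons from NADH (complex I) and succinate (complex II) through complex III to oxygen at complex IV, and complex V uses the proton gradient built on the way to make ATP. Complex II is wholly nuclear-encoded, whereas the mitochondrial DNA supplies 7 subunits of complex I, 1 of complex III, 3 of complex IV and 2 of complex V. Low oxygen is known to act on the chain through the HIF transcription factors, which exchange some complex IV subunits for alternative isoforms and divert carbon towards lactate. Counts came from a probe-based assay of fixed cells, in which a gene's level also depends on its probes. Levels are therefore compared between cells for 1 gene and not between genes, and shares summed over genes carry the same limit.

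Cells were assigned to classes by UMIs of marker genes, none of them a member, and a class is called by the name of its gate. The tumor gate held 40110 barcodes. Within it 15227 were OPC-like (oligodendrocyte progenitor-like), 8776 cycling, 2114 hypoxic MES-like (mesenchymal-like), 1795 AC-like (astrocyte-like) and 1786 committed OPC-like, while 611 NPC-like (neural progenitor-like) barcodes were gated over all cells. Outside the tumor there were 1115 macrophage, 776 fibroblast, 361 neutrophil, 334 microglia, 304 endothelial, 275 monocyte, 96 T cell and 45 pericyte barcodes. The hypoxic part of the hypoxic MES-like name was checked with genes kept out of its gate, and the MES-like part was not. Egln3, Bnip3 and Ero1a together made 8.36 of 10000 UMIs in hypoxic MES-like cells, 1.23 in OPC-like cells and 10.1 in neutrophils. The gate selects for low oxygen markers too, so this check is not independent of it. NPC-like barcodes carried only 13.5 of 10000 UMIs from the tumor-gate genes against 72.3 in OPC-like cells, and host neurons among them were not separated. AC-like genes kept out of the gates (Slc1a2, Agt and Gja1) made 9.37 in NPC-like, 1.18 in OPC-like and 20.8 in AC-like barcodes. Tumor genes kept out of the gates (Mfap4, Cpxm2, Col11a1, Matn4 and Lhfpl3) made 16.4 in NPC-like, 19.9 in OPC-like, 15.3 in cycling and 7.87 in AC-like barcodes. They made 2.61 to 12.8 in the non-tumor classes compared here, a range that holds the AC-like value. AC-like barcodes drew 82.3 of 10000 UMIs from the tumor-gate genes, and host astrocytes among them were not separated. The tumor-gate genes made 7.21 to 27.0 of 10000 UMIs in the non-tumor classes, and their part in the differences from tumor cells was not tested.

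Nuclear and mitochondrial members took different shares of a cell's UMIs in different classes. OPC-like tumor cells drew a mean of 1.50% of their UMIs from the 93 nuclear members, with a range over units of 1.33% to 1.61% (n = 5), and 1.05% from the 13 mt- members, with a range of 0.807% to 1.24%. In hypoxic MES-like cells the nuclear share was 1.18% (1.05% to 1.26%) and the mt- share 0.670% (0.559% to 0.816%). Each of the 5 units had lower shares in hypoxic MES-like than in OPC-like cells for both genomes. Among non-tumor classes, T cells and microglia had the highest mean mt- shares, 1.35% (0.952% to 1.71%, n = 4) and 1.24% (0.972% to 1.83%, n = 5), and macrophages the lowest, 0.762%. T cells and microglia overlapped widely, and 1 macrophage unit reached into both ranges. Nuclear shares lay between 0.942% in fibroblasts and 1.34% in pericytes, all below the 1.50% of OPC-like cells. A share falls when other genes of the cell rise, so each gene was also tested by itself.

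**Figure D1:**
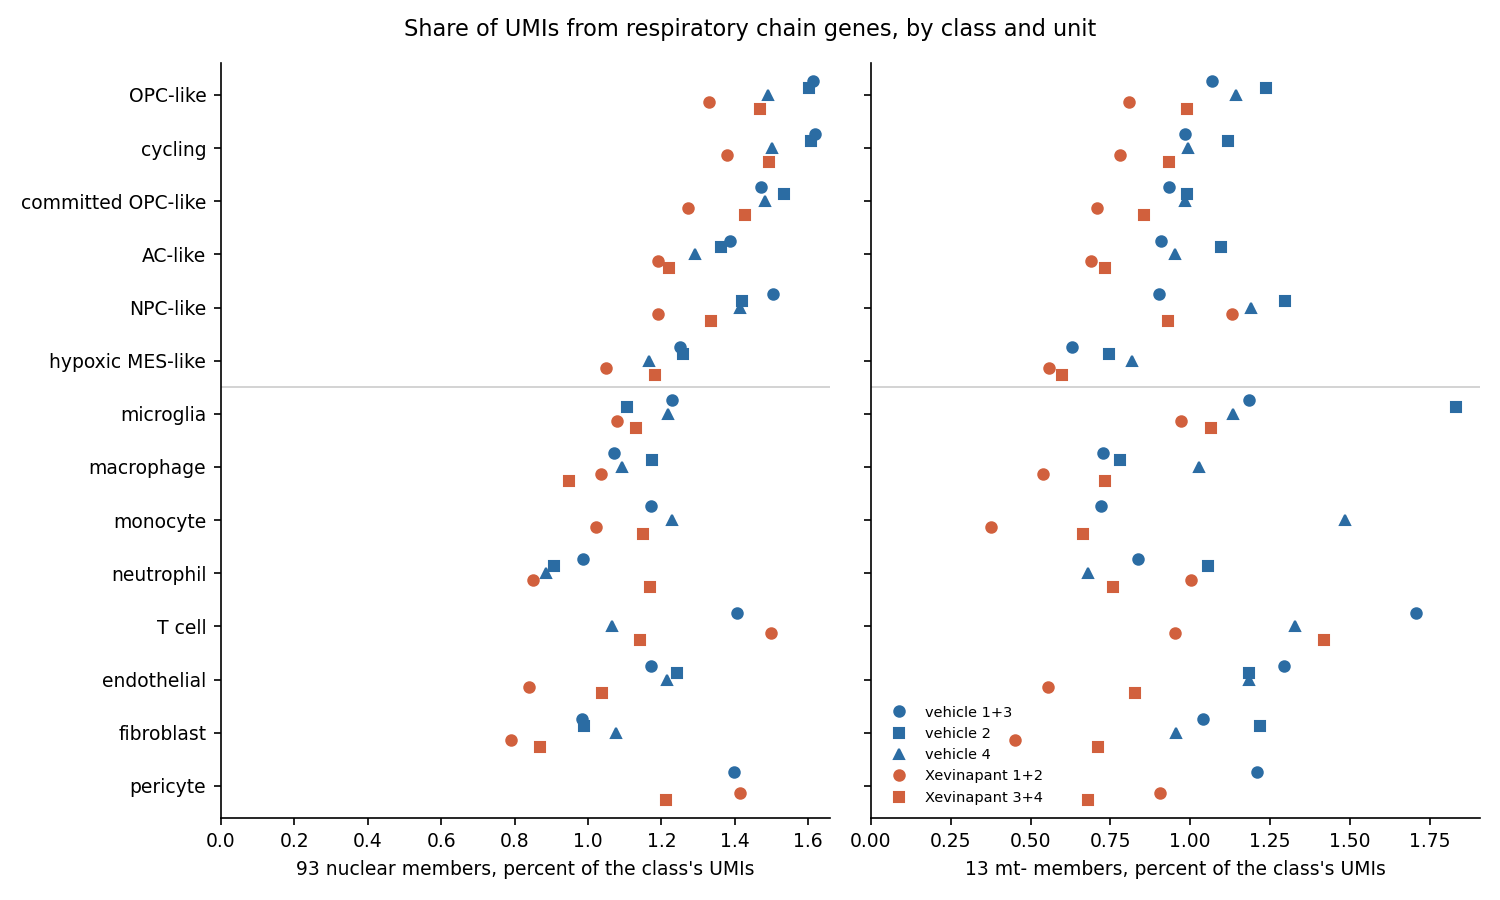
Percent of a class's UMIs that came from the 93 nuclear members (left) and the 13 mt- members (right), 1 point per unit, vehicle in blue and Xevinapant in orange, with tumor classes above the grey line. Hypoxic MES-like cells lie below OPC-like cells on both axes, at means of 1.18% against 1.50% and 0.670% against 1.05%.

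Most of the chain was lower in hypoxic MES-like than in OPC-like tumor cells. This gate asked for UMIs of Ndrg1, Akap12, Wwtr1, Vegfa, Adm and Ankrd37, and classes of the same unit were compared with the unit as a block. Of 105 members tested, 86 fell, 11 rose and 8 did not pass, by edgeR's quasi-likelihood test with Benjamini-Hochberg adjustment over all 13315 genes. Over all genes 30.4% fell and 29.5% rose in the same fit. A low-count filter asked for 0.951 CPM (the gene's count scaled to a fixed depth of 1000000 UMIs per class and unit) (counts per 1000000 UMIs) in 3 units, which 103 of the members met by OPC-like units alone. Cox4i2 and Cox6a2 met it only with the units of other states, among them the hypoxic MES-like ones where they are high, so their values are given as a description, and without them 9 members rose. The fall was seen in 5 of 5 units for all 86 members. The median log2 fold change was -0.32 for nuclear members, -0.70 for mt- members and -0.02 for all genes. Leaving out any unit left 76 to 83 members lower and 9 to 11 higher. Hypoxic MES-like barcodes had a median of 14566 UMIs against 18546 in OPC-like cells.

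The fall reached every complex but left gaps in complex IV. In complex I, 33 of 37 subunits fell, with a median of -0.36, led by Ndufb8 at -0.62 and Ndufb7 at -0.59, accessory subunits of the membrane arm. All 4 subunits of complex II fell, 7 of 8 of complex III and 13 of 14 of complex V, where Atp5c1, the rotating gamma subunit, changed by -0.51 and Atp5b, the catalytic beta subunit, by -0.42. In complex IV, 9 of 17 tested members fell and 6 rose, or 4 of 15 without Cox4i2 and Cox6a2, which are given as a description. Among the falls were Cox6c at -0.48 and Cox5b at -0.33, and Atp5g3, a ring subunit of complex V, was at -0.48. Of the assembly factors, 6 of 8 for complex I and 2 of 4 for complex II fell. Ndufa7, Ndufs3, Sdhaf2, Sdhaf3, Uqcrh, Cox7c, Cox8a and Atp5d did not pass, with fold changes between -0.11 and 0.11 on the log2 scale.

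**Figure D2:**
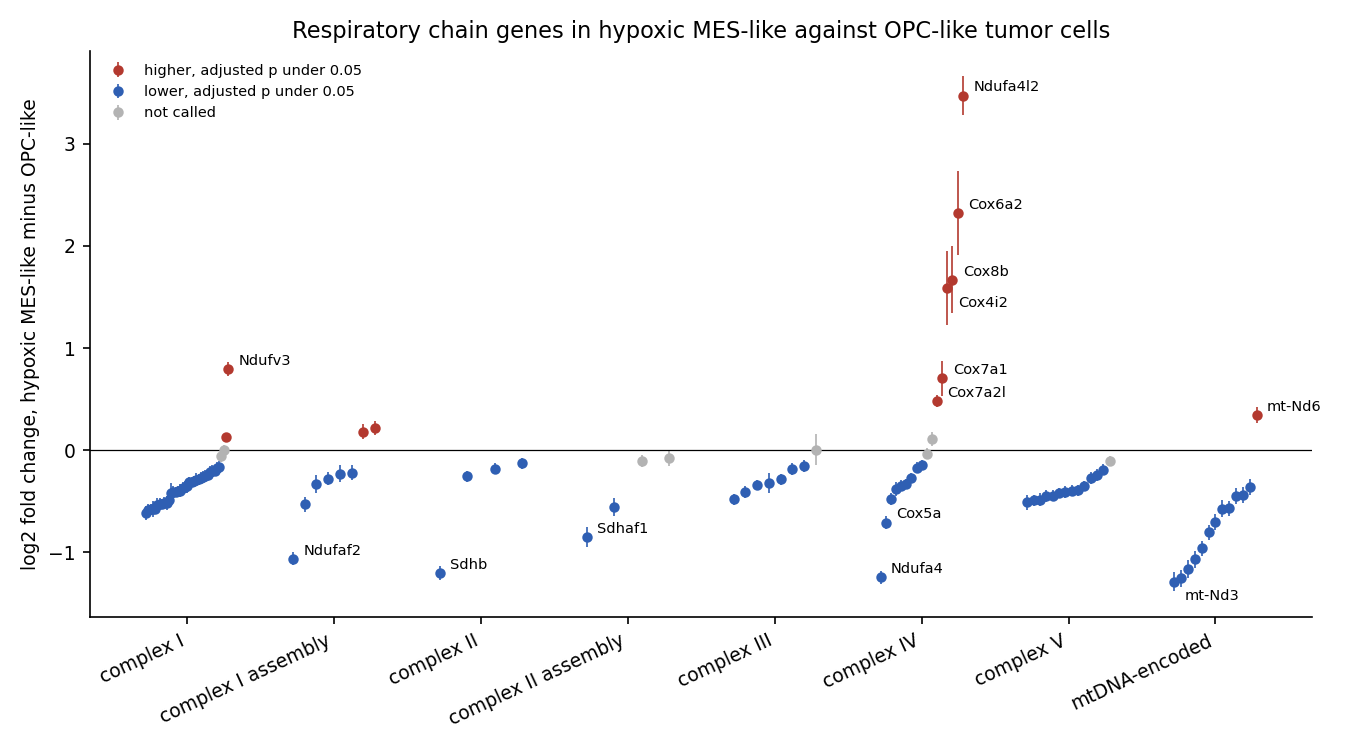
Log2 fold change of each tested member in hypoxic MES-like minus OPC-like cells (points, bars are SE, n = 5 units with a block), grouped by complex and ordered by value; blue fell, red rose and grey did not pass an adjusted p of 0.05. Most points lie below 0 in every group, while complex IV spans from -1.25 for Ndufa4 to 3.47 for Ndufa4l2.

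The nuclear members that fell furthest were Ndufa4, Sdhb and Ndufaf2. Ndufa4 read 210, 216, 206, 116 and 181 CPM in OPC-like cells and 80.9, 79.0, 90.7, 47.8 and 76.1 CPM in hypoxic MES-like cells. Every hypoxic value was below every OPC-like value, and the log2 fold change was -1.25 (SE 0.0597, edgeR adjusted p = 2.15e-15). Sdhb, the iron-sulfur subunit that carries electrons within complex II, read 197, 176, 178, 187 and 187 CPM against 84.5, 61.5, 75.7, 77.8 and 84.8 CPM. It fell by 1.20 (SE 0.0733, edgeR adjusted p = 2.33e-13), again without overlap, whereas Sdha, Sdhc and Sdhd of the same complex fell by 0.18, 0.26 and 0.13. The call of Sdhd was lost when any 1 unit was left out (edgeR adjusted p = 0.0658 to 0.216). Sdhaf1, which helps to load iron-sulfur clusters into Sdhb, changed by -0.85. Ndufaf2, a late assembly factor of complex I, read 88.0, 91.7, 113, 81.3 and 97.2 CPM against 35.7, 46.2, 51.2, 40.9 and 43.1 CPM, a fall by 1.07 (SE 0.0642, edgeR adjusted p = 1.99e-13). Cox5a, a structural subunit of complex IV, read 148, 153, 160, 107 and 154 CPM against 91.7, 85.7, 97.2, 62.4 and 90.1 CPM (-0.71).

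Ndufv3 and Cox7a2l rose. Ndufv3, an accessory subunit next to the flavin site of complex I, read 238, 218, 171, 197 and 194 CPM in OPC-like cells and 381, 376, 308, 323 and 309 CPM in hypoxic MES-like cells. The groups did not overlap, and the log2 fold change was 0.80 (SE 0.0675, edgeR adjusted p = 1.35e-10). Ndufv1 and Ndufv2, the core subunits at the same site, both changed by -0.36. Cox7a2l, which takes part in joining complexes III and IV into supercomplexes, read 199, 213, 177, 204 and 191 CPM against 261, 302, 233, 289 and 239 CPM (0.48, SE 0.0565, edgeR adjusted p = 4.49e-08), again with no overlap. Ndufaf7 rose by 0.22. Ndufaf1 rose by 0.18 and Ndufa6 by 0.12, and both calls were lost without TMM normalization (which scales libraries by their typical gene) and without some single units.

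The promoters of 2 members that fell and 2 that rose are shown because these genes moved furthest in each direction among nuclear members with an entry and a mean log2 CPM of at least 5. Each sequence is the 250 bases before the RefSeq start on GRCm38.p6, given 5′ to 3′ on the gene's strand in lower case, with the NRF1 core GCATGCGC in capitals where it occurs. Ndufa4 lies on the minus strand (chr6:11907451-11907700), Sdhb on the plus strand (chr4:140961021-140961270), Ndufv3 on the plus strand (chr17:31519865-31520114) and Cox7a2l on the minus strand (chr17:83514334-83514583).
Ndufa4: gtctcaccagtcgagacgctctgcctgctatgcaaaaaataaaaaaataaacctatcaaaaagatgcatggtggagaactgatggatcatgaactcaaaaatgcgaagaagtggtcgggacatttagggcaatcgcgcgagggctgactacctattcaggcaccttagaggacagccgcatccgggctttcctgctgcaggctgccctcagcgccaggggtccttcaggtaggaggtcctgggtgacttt
Sdhb: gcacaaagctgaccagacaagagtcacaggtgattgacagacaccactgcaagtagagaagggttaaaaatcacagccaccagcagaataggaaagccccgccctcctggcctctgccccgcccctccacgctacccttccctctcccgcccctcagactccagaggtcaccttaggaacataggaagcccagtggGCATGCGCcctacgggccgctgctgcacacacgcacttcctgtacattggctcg
Ndufv3: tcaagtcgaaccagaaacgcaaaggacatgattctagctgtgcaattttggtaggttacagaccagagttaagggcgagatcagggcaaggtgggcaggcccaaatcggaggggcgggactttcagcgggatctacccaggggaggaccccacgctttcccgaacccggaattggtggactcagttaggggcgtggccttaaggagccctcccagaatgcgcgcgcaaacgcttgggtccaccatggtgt
Cox7a2l: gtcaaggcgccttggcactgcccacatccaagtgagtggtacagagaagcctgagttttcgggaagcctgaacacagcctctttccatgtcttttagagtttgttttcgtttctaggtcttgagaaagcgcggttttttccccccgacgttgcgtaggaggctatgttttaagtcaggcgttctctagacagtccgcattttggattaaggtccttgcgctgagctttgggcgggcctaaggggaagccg
RefSeq promoters were matched for 75 of the 93 nuclear members, and 18 had no entry, Ndufa4l2 and Cox4i2 among them. Letters were searched on both strands. The core of the hypoxia response element, ACGTG, stood in 13 of the 75 windows (17.3%) and in 16.6% of all 27025 windows of this length. It was in none of the 4 printed. The NRF1 core, named for a regulator of respiratory genes, was in 8 member windows (10.7%) against 2.32% of all. Sdhb carries it from position -54, counted from the RefSeq start. GENCODE starts Ndufa4 at 11907497 and Sdhb at 140961203, both inside these windows, and Cox7a2l at 83517330, upstream of its window. Counted from the GENCODE start, the NRF1 core of Sdhb lies downstream, within the gene. The ETS core CCGGAAG, which the factor GABP can bind, was in 14 (18.7%) against 7.05%.

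All 13 mitochondrially encoded members passed the test in hypoxic MES-like cells, 12 of them downwards. These genes are read as 2 long precursors from opposite strands of the mitochondrial DNA and cut apart afterwards. Apart from mt-Nd6, the subunits of complex I fell furthest. mt-Nd3 read 292, 356, 320, 139 and 244 CPM in OPC-like cells and 97.2, 145, 150, 61.9 and 81.0 CPM in hypoxic MES-like cells. Every unit was lower, and the groups met only where the hypoxic values of vehicle 2 and vehicle 4 exceeded the OPC-like value of Xevinapant 1+2. The log2 fold change was -1.29 (SE 0.0908, edgeR adjusted p = 3.84e-12). mt-Nd2 changed by -1.25, mt-Nd4l by -1.07, mt-Nd5 by -0.96 and mt-Nd4 by -0.81. mt-Nd1 read 686, 932, 760, 486 and 638 CPM against 255, 440, 351, 228 and 245 CPM, without overlap (-1.16, SE 0.0884, edgeR adjusted p = 1.69e-11).

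The mitochondrial subunits of the other complexes fell by less. mt-Cytb of complex III changed by -0.70, mt-Atp8 and mt-Atp6 of complex V by -0.58 and -0.45, and mt-Co3, mt-Co1 and mt-Co2 of complex IV by -0.57, -0.44 and -0.36. mt-Co1, the catalytic subunit of cytochrome c oxidase, read 877, 941, 1028, 595 and 795 CPM in OPC-like cells and 615, 606, 782, 448 and 552 CPM in hypoxic MES-like cells. It was lower in each unit, while the ranges overlapped.

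mt-Nd6 went the other way. It read 163, 142, 220, 207 and 172 CPM in OPC-like cells and 178, 150, 281, 285 and 222 CPM in hypoxic MES-like cells, higher in each unit with overlapping ranges (0.34, SE 0.0825, edgeR adjusted p = 0.000777). It is the only member on the minus strand of the mitochondrial DNA of GRCm38 (13552 to 14070), and its end overlaps that of mt-Nd5 (11742 to 13565, plus strand).

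**Figure D3:**
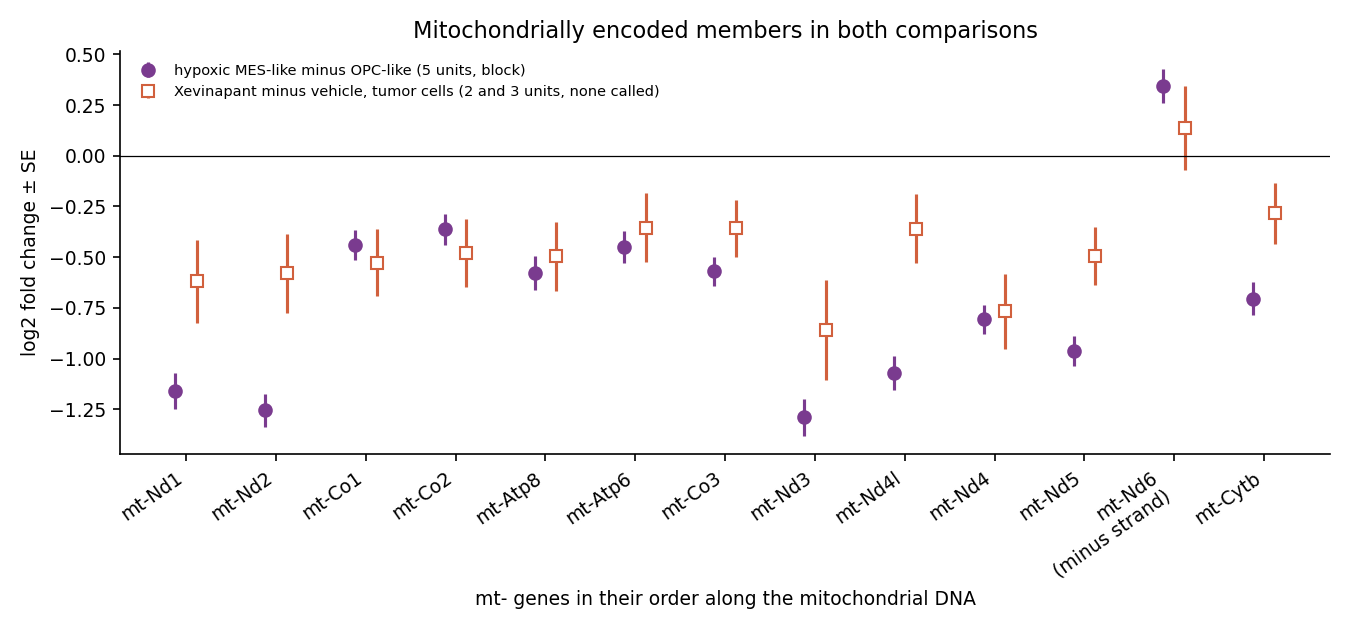
Log2 fold change (± SE) of the 13 mt- members in their order along the mitochondrial DNA, for hypoxic MES-like minus OPC-like cells (filled purple, n = 5 units) and for Xevinapant minus vehicle in tumor cells (open orange, 2 and 3 units). The purple points run from -1.29 for mt-Nd3 to 0.34 for mt-Nd6, and none of the orange points passed the test.

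Of the complex IV isoforms known from low oxygen or from muscle, Ndufa4l2, Cox8b and Cox7a1 rose in hypoxic MES-like cells. Ndufa4l2, the hypoxia-inducible relative of Ndufa4, read 9.59, 8.49, 5.62, 7.11 and 6.41 CPM in OPC-like cells and 118, 88.4, 51.9, 54.6 and 86.9 CPM in hypoxic MES-like cells. No values overlapped, and the log2 fold change was 3.47 (SE 0.187, edgeR adjusted p = 2.05e-14), the highest of all members in this comparison. The gate selects for low oxygen markers, so the rise of a hypoxia-inducible gene is no independent result. Ndufa4l2 made 2.65% to 5.80% of the UMIs of the pair Ndufa4l2 and Ndufa4 in OPC-like cells and 36.4% to 59.2% in hypoxic MES-like cells. Probes differ between both genes, so these percentages describe the shift and not the ratio of the proteins.

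Further isoforms had higher values from low levels. Cox4i2, the oxygen-responsive isoform of Cox4i1, read 0.975, 0.957, 0.367, 0.788 and 0.913 CPM against 1.30, 2.69, 4.40, 1.14 and 2.29 CPM, a fitted difference of 1.59 on the log2 scale. This rests on 85 UMIs in 2114 hypoxic MES-like barcodes. Cox6a2, a heart and muscle isoform, had a fitted difference of 2.32 on 72 UMIs, with 0.294 to 0.566 CPM in OPC-like and 0.741 to 3.24 CPM in hypoxic MES-like units. Cox8b, also a muscle isoform, read 14.1, 8.35, 6.74, 5.32 and 5.77 CPM against 32.8, 48.4, 26.4, 11.7 and 12.3 CPM (1.67, SE 0.326), and Cox7a1, another of this kind, changed by 0.70 (SE 0.172). Their common partners moved little or fell, with Cox4i1 at -0.14, Cox6a1 at -0.38, Cox7a2 at -0.27 and Cox8a at 0.11. The call of Cox4i1 was lost when vehicle 1+3, vehicle 2 or Xevinapant 3+4 was left out (edgeR adjusted p = 0.0542 to 0.0967). Of 7 tested skeletal muscle genes, chosen after these isoforms were seen, none passed the edgeR test, with fold changes from -0.31 to 0.51 and a lowest unadjusted p of 0.428.

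Ndufa4l2 and Cox4i2 also had high values in cells of the vessel wall and the stroma. The fit of lineages against tumor cells asked for 16.8 CPM in 3 units, which 99 of its 103 members met by tumor units alone. Ndufa4l2, Cox4i2, Cox6b2 and Cox8b met it only through non-tumor classes, so their values are given as a description, with no test, and Cox7a1, Cox6a2 and Uqcrh did not enter. In pericytes, the contractile cells on capillaries, Cox4i2 read 308, 685 and 157 CPM in vehicle 1+3, Xevinapant 1+2 and Xevinapant 3+4, the units with enough pericytes. Tumor cells of the same units read 1.29, 1.01 and 1.92 CPM. It made 45.0% to 74.5% of the UMIs of the pair Cox4i2 and Cox4i1. Ndufa4l2 read 184, 638 and 359 CPM in the same pericytes, against 16.7, 16.7 and 14.5 CPM in tumor cells. The units held 10 or 11 pericyte barcodes. Of the 99 other members none was called in pericytes by edgeR, where 10.5% of all genes rose and 3.79% fell.

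Fibroblasts and endothelial cells held Cox4i2 between tumor cells and pericytes, while fibroblast Ndufa4l2 overlapped the range of pericytes. In endothelial cells Ndufa4l2 made 17.0% to 31.3% of its pair with Ndufa4. That lay between tumor cells (3.48% to 13.6%) and pericytes (54.8% to 88.3%). Fibroblast Ndufa4l2 read 78.1, 204, 95.4, 297 and 205 CPM against 16.7, 12.9, 7.25, 16.7 and 14.5 CPM in tumor cells, and fibroblast Cox4i2 24.7, 23.6, 9.42, 27.8 and 21.6 CPM, all above the tumor units (0.515 to 1.92 CPM). Pericyte genes kept out of the gates made 1.12 of 10000 UMIs in fibroblasts and 9.68 in pericytes, and their part in the fibroblast values was not tested. Endothelial Cox4i2 read 15.7, 10.1, 43.7, 17.8 and 22.1 CPM, also above the tumor units. In T cells neither gene had a UMI among 286969, which allows up to 10.5 CPM (3 counts over the class, counting error only). The order of Ndufa4l2 as a percentage of its pair, from pericytes and fibroblasts through hypoxic MES-like to endothelial cells, was not separated between neighbours except at the last step.

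**Figure D4:**
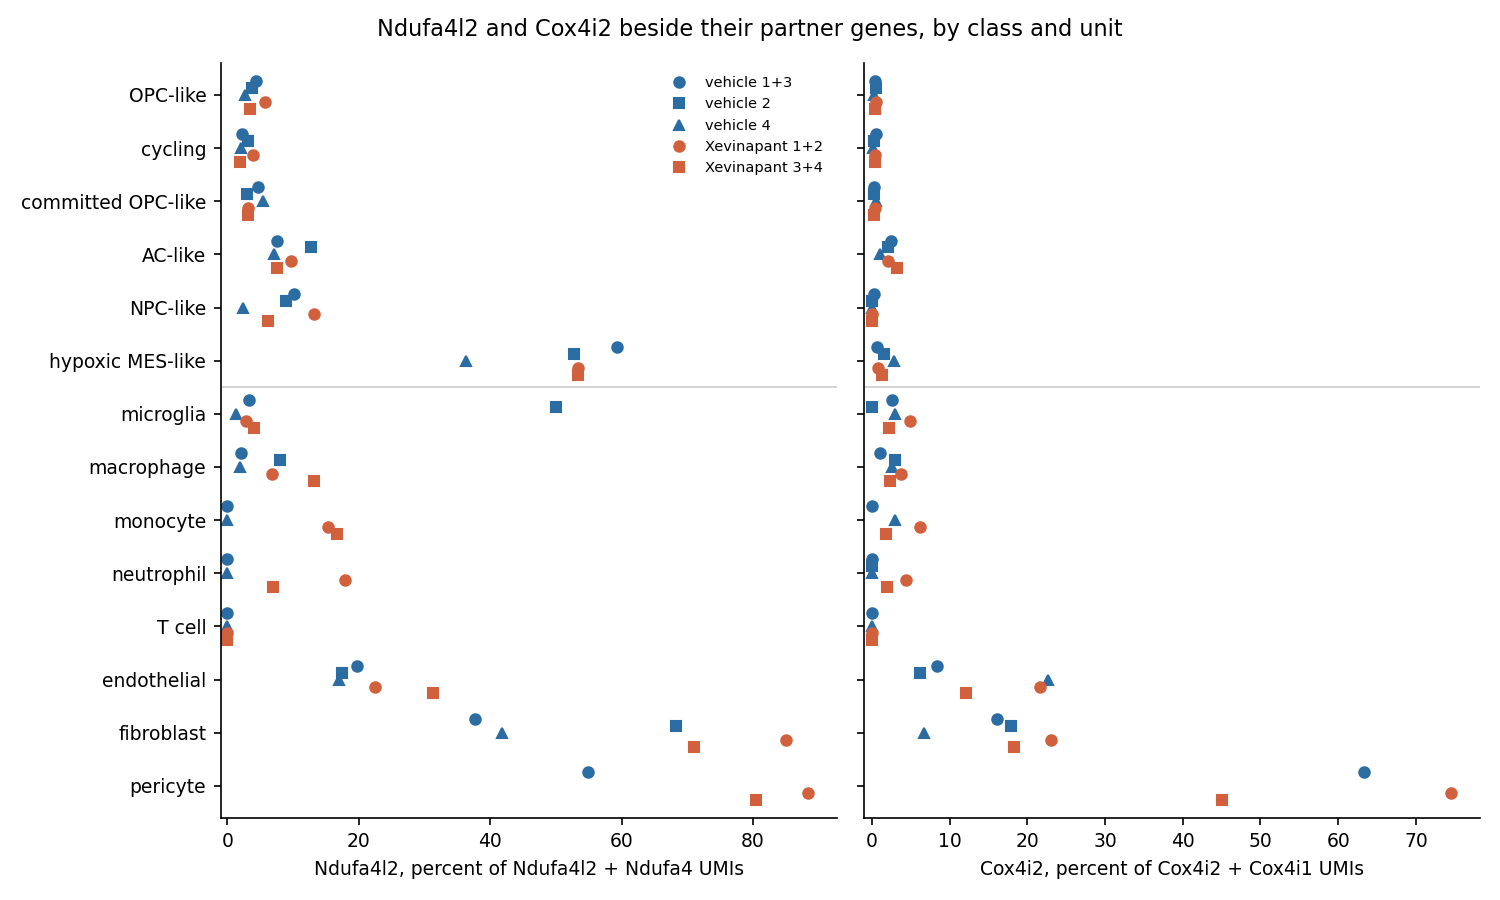
Ndufa4l2 as percent of the UMIs of Ndufa4l2 and Ndufa4 (left) and Cox4i2 as percent of Cox4i2 and Cox4i1 (right), by class, 1 point per unit, vehicle in blue and Xevinapant in orange. Hypoxic MES-like cells reach 36.4% to 59.2% for Ndufa4l2, and pericytes 45.0% to 74.5% for Cox4i2.

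Neighbouring pathways were counted in the same comparison of hypoxic MES-like cells, in which 30.4% of all genes fell and 29.5% rose. All 11 tested genes of the HIF-driven switch rose, among them Slc2a1, the glucose importer (3.67), Egln3, an oxygen sensor (2.91), and Bnip3, which marks mitochondria for removal (2.76), but the gate selects for low oxygen markers, so this list is no independent result. In the citric acid cycle, 10 of 15 genes fell and the other 5 did not pass, with a median of -0.29 and Idh3a at -0.71, Fh1 at -0.69 and Ogdh at -0.64. Of 31 assembly factors, cytochrome c and carriers outside the rule, 15 fell and 5 rose, with Cycs, the somatic cytochrome c, at -0.92 and Oxa1l, which inserts proteins into the inner membrane, at -0.71 and Cox10, which makes the heme of complex IV, at -0.63. Of 22 genes for mitochondrial DNA expression and biogenesis, 13 fell and 4 rose, with Tsfm, a mitochondrial translation factor, at -0.59, Tfb1m, which modifies mitochondrial ribosomal RNA, at -0.54 and Ppargc1b, a coactivator of mitochondrial biogenesis, at 0.88. All 9 genes of a handling stress list rose as well (median 2.24), with Atf3 at 3.24, Fos at 2.73 and Junb at 2.65, and its part in the members' fall was not tested.

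Fewer members were called in the other tumor states, all of which share the OPC-like cells as their reference. In AC-like cells 48 members fell and 6 rose, beside 32.8% and 30.9% of all genes. Without TMM the split was 76 and 3, and with DESeq2 40 and 12. Sdhaf1 changed by -0.70, mt-Nd3 by -0.48 and Cox5a by -0.40. Cox4i2 read 5.29, 3.89, 1.62, 3.31 and 5.88 CPM in AC-like cells, above every OPC-like unit, which is given as a description for the reason named above. Without it 5 members rose. Pericyte genes kept out of the gates made 2.04 of 10000 UMIs in AC-like, 0.939 in OPC-like and 9.68 in pericyte barcodes. Their part in the AC-like Cox4i2 values was not tested. Cox7a1 rose by 1.33, Ndufa4l2 by 1.03, and Sdhaf4, an assembly factor of complex II, by 0.27. Ndufa13 (0.14) and Ndufa7 (0.12), accessory subunits of complex I, were called but higher in only 2 of 5 units, and both calls were lost without TMM, with no filter on low counts and without vehicle 4. The call of Sdhaf4 was lost without TMM (0.17). All 9 handling stress genes rose here too (median 1.71), with the median of members at -0.12, and their part was not tested. Of the macrophage genes kept out of the gates, Apoe, which astrocytes also express, made 105.4 of 10000 UMIs in AC-like, 6.15 in OPC-like and 297 in macrophage barcodes. Pf4 made 0.034, 0.029 and 22.4 and Ms4a6c 0.027, 0.022 and 2.42, so that both were about as low in AC-like as in OPC-like cells.

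Committed OPC-like cells had 31 of 105 members lower and 7 higher, beside 27.1% and 25.6% of all genes. The falls were near the share of all genes, and the rises were below it. mt-Nd1 changed by -0.46, mt-Nd3 by -0.39 and Sdhaf1 by -0.49, and Ndufv3 rose by 0.36, with 294, 251, 234, 248 and 246 CPM. Ndufa1, a small accessory subunit of complex I, and Ndufaf7, an assembly factor, each rose by 0.30, in 5 of 5 units. The number of falls dropped to 18 without vehicle 4 and to 19 without Xevinapant 3+4.

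Cycling cells showed 21 of 105 members higher and 2 lower, beside 18.6% and 18.2% of all genes. The rises were near the share of all genes, and the falls were below it. The count depended on scaling, with 2 higher and 3 lower without TMM and 33 higher and 2 lower with DESeq2, and 7 and 8 higher without vehicle 1+3 or Xevinapant 1+2. Ndufaf3, an early assembly factor of complex I, read 49.7, 49.2, 40.9, 48.7 and 33.3 CPM in cycling and 37.2, 36.2, 27.0, 32.8 and 27.6 CPM in OPC-like cells (0.53, SE 0.0753, edgeR adjusted p = 4.00e-06). It was higher in each unit, with overlapping ranges. Sdhaf4 rose by 0.26 and Ndufaf5 by 0.22, the latter not without TMM. Ndufaf1 changed by -0.23, and its call was lost without vehicle 1+3 or Xevinapant 3+4. None of the 13 mt- members passed the adjusted or the unadjusted test at 0.05. NPC-like cells had 49 members lower, or 48 without Cox4i2, and 9 higher, beside 35% and 30% of all genes. Ndufa5, an accessory subunit of complex I, changed by -0.59, Ndufaf2 by -0.55 and Sdhaf1 by -0.66. Cox8b rose by 1.65, Ndufa4l2 by 1.19, Ndufv3 by 0.38, and the assembly factors Ndufaf1 and Ndufaf5 by 0.27 and 0.21. Of the mt- members, mt-Nd6 (-0.27) and mt-Nd5 (-0.18) passed, mt-Nd5 only with all 5 units and mt-Nd6 not without vehicle 1+3, vehicle 4 or Xevinapant 3+4 (-0.19, -0.19 and -0.13).

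Immune cells were compared with tumor cells as a whole, with the unit as a block, over 103 members and 11802 genes. In microglia, the resident phagocytes of the brain, 14 members rose and 19 fell, beside 25.8% and 32.5% of all genes, or 12 and 19 without the 4 members that met the filter only through non-tumor classes. Both directions were thus called less often among members than among all genes. The subunits that mitochondrial DNA gives to complex IV were among the higher ones. mt-Co3 read 1355, 1915, 1203, 1258 and 1170 CPM in microglia and 852, 946, 881, 680 and 763 CPM in tumor cells (0.98, SE 0.217, edgeR adjusted p = 0.000178). No microglial value came down to the tumor values. mt-Co1 rose by 0.91 and mt-Co2 by 0.67, the latter not without vehicle 2 or Xevinapant 3+4. Of the nuclear subunits of complexes II and IV, Sdhb (0.51) and Cox5a (0.60) were higher, while Ndufa4 changed by -0.68 and Ndufb9, an accessory subunit of complex I, by -0.67. Sdhaf3 changed by -1.26 and Sdhaf1 by -1.10, whereas Sdhaf2, which attaches the flavin of complex II to Sdha, rose by 0.82. Without TMM, Sdhb (0.25) and mt-Co2 (0.43) were not called. The split was 6 higher and 48 lower without TMM and 15 and 42 with DESeq2. In the 17 microglia of vehicle 2, Ndufa4l2 stood at 122 CPM and Cox6a2 at 99.6 CPM, far above the other units.

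Macrophages and monocytes were read against the same tumor cells. In macrophages 10 members rose and 25 fell, beside 28.9% and 40.1% of all genes, and in monocytes 7 rose and 18 fell, beside 25.8% and 32.5%. Without the 4 members that met the filter only through non-tumor classes, 8 rose and 24 fell in macrophages and 5 and 18 in monocytes. Either way, members were called less often than all genes in both directions and both classes. Ndufaf2 read 31.1, 39.3, 39.7, 40.5 and 29.7 CPM in macrophages against 82.0, 87.7, 107, 73.8 and 91.1 CPM in tumor cells, without overlap (-0.92, SE 0.164, edgeR adjusted p = 4.95e-06), and changed by -1.10 in monocytes. Sdhb rose by 0.47 and 0.59, with the macrophage call lost without TMM (0.13). Ndufa4 changed by -0.85 and -0.68. Sdhaf1 changed by -1.04 in macrophages, where mt-Nd6 rose by 0.73 and Ndufv3 by 0.49, both without a call when TMM was left out (0.38 and 0.14), Ndufv3 also without vehicle 2. In monocytes Ndufb1-ps, listed under a pseudogene symbol, rose by 0.89 and Cox7a2l by 0.71, while Ndufab1 changed by -0.78 and Ndufb2 by -0.76, the latter without a call when Xevinapant 1+2 was left out or thresholds were doubled. Macrophage Ndufa4l2 read lower than tumor cells in 5 of 5 units, as a description. Macrophage falls numbered 14 to 16 without vehicle 1+3, vehicle 4 or Xevinapant 3+4. The splits without TMM were 2 higher and 66 lower in macrophages and 5 and 44 in monocytes, and with DESeq2 11 and 48, and 7 and 39. Leaving TMM out moved the median of all genes to -0.54 in macrophages, from -0.20.

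Cox6b2, known as the testis isoform of Cox6b1, was close to absent from tumor cells, with 132 UMIs in 40110 barcodes and 0.133 to 0.169 CPM in tumor units. It was not tested among the tumor states and met the filter of the lineage fit through microglia and fibroblasts, so its values are a description. Fibroblasts held 92 UMIs in 776 barcodes and read 22.6, 5.05, 4.50, 6.66 and 7.42 CPM, without overlap with tumor units. With 35 UMIs in microglia and 12 in monocytes, single units there read 0.

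Neutrophils, short-lived cells that rely mainly on glycolysis, had 33 of 103 members lower and the other 70 uncalled, beside 22.1% of all genes lower and 19.8% higher. DESeq2 called 2 higher and 42 lower. Ndufa12, an accessory subunit of complex I, read 47.8, 0, 62.9, 47.8 and 98.4 CPM against 217, 184, 202, 150 and 159 CPM in tumor cells (-1.22, SE 0.21, edgeR adjusted p = 9.58e-06). Its ranges did not overlap, but neutrophils of the vehicle units held only 62788, 15984 and 47732 UMIs over all genes. The vehicle values therefore rest on few molecules, that of vehicle 2 on 0. Atp5c1 changed by -1.18 and Ndufab1, the mitochondrial acyl carrier protein, by -1.15. Falls numbered 18 without Xevinapant 1+2, which held 211 of the 361 barcodes. The median neutrophil had 1478 UMIs.

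T cells gave 5 of 103 members higher and 13 lower, beside 16.1% and 21.9% of all genes, from 4 units of 11 to 49 barcodes. Members were thus called less often than all genes in both directions. Subunits of complex I, which are 37 of the 106 members, made 8 of the 13 falls. Among them were Ndufb9 at -1.14 (SE 0.267), Ndufa5 at -1.13 (SE 0.271) and Ndufc2 at -1.04 (SE 0.243). Ndufaf2 (-1.27) and Atp5c1 (-1.24) fell further, and both calls were lost without vehicle 4 or Xevinapant 3+4. mt-Co1 read 2092, 1549, 1021 and 1429 CPM in T cells of vehicle 1+3, vehicle 4, Xevinapant 1+2 and Xevinapant 3+4, against 846, 980, 567 and 736 CPM in tumor cells of these units (0.79, SE 0.253, edgeR adjusted p = 0.0125). Each T cell value was above every tumor value, but the call was lost without vehicle 1+3 (edgeR adjusted p = 0.097) or Xevinapant 3+4 (0.108). mt-Nd6 (0.85) lost its call without vehicle 2 (0.71) or Xevinapant 3+4 (0.46), and mt-Co3 (0.62) without any of these 3 units. Vehicle 2, with 5 T cell barcodes, gave no T cell values, so leaving it out changed only the other classes of the fit. Without Xevinapant 3+4, 6 members fell. The split was 6 higher and 11 lower without TMM and 7 and 11 with DESeq2.

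Endothelial cells had 19 of 103 members lower and 4 higher, beside 23.1% and 23.5% of all genes, and fibroblasts 33 lower and 4 higher, beside 21.1% and 27.9%. Endothelial members were thus called less often than all genes in both directions. Fibroblast members fell more often and rose less often than all genes. Cox4i2, Cox6b2 and Ndufa4l2 were 3 of the 4 higher ones in both classes and met the filter only through non-tumor classes. Subunits of complex I, which are 37 of the 106 members, made 13 and 16 of these falls. Among them were Ndufs3 (-0.56) and Ndufa13 (-0.55) in endothelial cells and Ndufb11 (-0.60) and Ndufa8 (-0.58) in fibroblasts. Ndufaf2 changed by -0.63 in endothelial cells, and Sdhaf1 by -0.66 and Uqcrfs1, the Rieske iron-sulfur protein of complex III, by -0.58 in fibroblasts. Endothelial mt-Nd6 rose by 0.60, higher in 4 of 5 units, and lost its call without TMM, with no filter on low counts and without vehicle 1+3 or vehicle 2. mt-Nd6 rose by 0.995 in fibroblasts, with 266, 269, 290, 263 and 291 CPM against 158, 139, 212, 216 and 169 CPM in tumor cells. The ranges did not overlap. Endothelial falls numbered 12 without vehicle 4 and 6 without Xevinapant 3+4, and the split was 3 higher and 55 lower without TMM and 4 and 46 with DESeq2. In fibroblasts it was 4 higher and 84 lower without TMM and 4 and 54 with DESeq2.

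Treatment was tested within each class over units, 3 vehicle against 2 Xevinapant for most. In tumor cells no member was called by edgeR, as for all of the 14586 genes (0%), although 42 of 106 members had an unadjusted p under 0.05, all lower with Xevinapant, beside 10.6% of all genes. DESeq2 called 7 members lower, beside 1.05% of all genes, and edgeR with each matrix taken as 1 mouse 22, beside 2.72%. The median log2 fold change was -0.22 for nuclear members, -0.49 for mt- members and 0.00 for all genes. Units did not overlap for 52 members that were lower (12 of the 13 mt- members), beside 11.1% of all genes, and for 1 that was higher, beside 18.3%.

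Ndufb3, an accessory subunit of complex I, read 26.6, 22.3 and 22.6 CPM in vehicle and 9.83 and 13.7 CPM in Xevinapant tumor cells (-1.07, SE 0.195, edgeR adjusted p = 0.396, DESeq2 adjusted p = 5.77e-05). mt-Nd4 read 315, 398 and 277 against 184 and 218 CPM (-0.77, SE 0.185, edgeR adjusted p = 0.442, DESeq2 adjusted p = 0.0202). mt-Nd3 read 271, 335 and 300 against 123 and 223 CPM (-0.86, SE 0.247, edgeR adjusted p = 0.442). In each of these genes both Xevinapant units lay below all vehicle units, with Xevinapant 1+2 the lowest. mt-Co1 read 846, 891 and 980 against 567 and 736 CPM (-0.53). mt-Nd6 read 158, 139 and 212 against 216 and 169 CPM, with overlap (0.14), and its sign turned without Xevinapant 1+2 (-0.08). Over the 8 matrices the mt- share of tumor UMIs was 0.985%, 1.17%, 1.04% and 1.09% in vehicle and 0.707%, 0.794%, 0.963% and 0.845% in Xevinapant. Handling stress genes had a median of 1.37 in this comparison with none of 9 called, and hypoxic MES-like cells made 4.67%, 3.63% and 2.56% of vehicle and 10.1% and 7.16% of Xevinapant tumor barcodes. Within OPC-like cells alone the mt- median was -0.44, and the part of stress was not tested.

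The same held in the other classes. No member was called by edgeR in any of the 14 classes with enough units, where 0% of all genes were called in 10 classes, 0.00847% in committed OPC-like, 0.00943% in NPC-like, 0.0096% in macrophage and 0.211% in endothelial cells. Members with an unadjusted p under 0.05 numbered 37 in AC-like cells (beside 8.42% of all genes), 35 in fibroblast (14.1%), 34 in OPC-like (9.46%), 27 in committed OPC-like (9.94%), 26 in endothelial (11.2%), 20 in cycling (4.96%), 18 in hypoxic MES-like (11.9%), 7 in monocyte (4.10%) and 5 in microglia (3.33%). The 15 of 101 in macrophage (11.3%) and the 10 of 102 in NPC-like cells (8.83%) were near the share of all genes, and neutrophils and T cells had none (2.60% and 4.91%). With each matrix taken as 1 mouse, edgeR called 4 members lower in OPC-like (beside 0.932% of all genes) and 4 in hypoxic MES-like cells (1.61%). DESeq2 called, all of them lower, 7 members in AC-like cells (beside 0.202% of all genes), 5 in hypoxic MES-like (0.782%), 3 in fibroblast (0.325%) and 1 each in OPC-like (0.372%), cycling (0.112%) and endothelial cells (0.0223%). The median of mt- members was most negative in monocytes (-1.10, from 2 units per group), fibroblasts (-0.84) and endothelial cells (-0.78) and was 0.14 in neutrophils. Fibroblast mt-Nd3 read 248, 302 and 224 CPM in vehicle and 59.8 and 129 CPM in Xevinapant units, without overlap (-1.37, SE 0.322, edgeR adjusted p = 0.199). Of 10000 UMIs, tumor-gate genes made 32.4 in fibroblasts of vehicle and 13.5 in those of Xevinapant tumors, 25.4 and 12.1 in monocytes, and 27.1 and 18.6 in endothelial cells. Handling stress genes had a median of 1.21 in fibroblasts and 2.02 in endothelial cells, where 6 of 8 were called. Their part was not tested. In hypoxic MES-like cells DESeq2 called Cox8b (-1.59), mt-Nd3 (-0.89), Atp5c1 (-0.77), mt-Nd4 (-0.71) and Atp5f1 (-0.62).

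**Figure D5:**
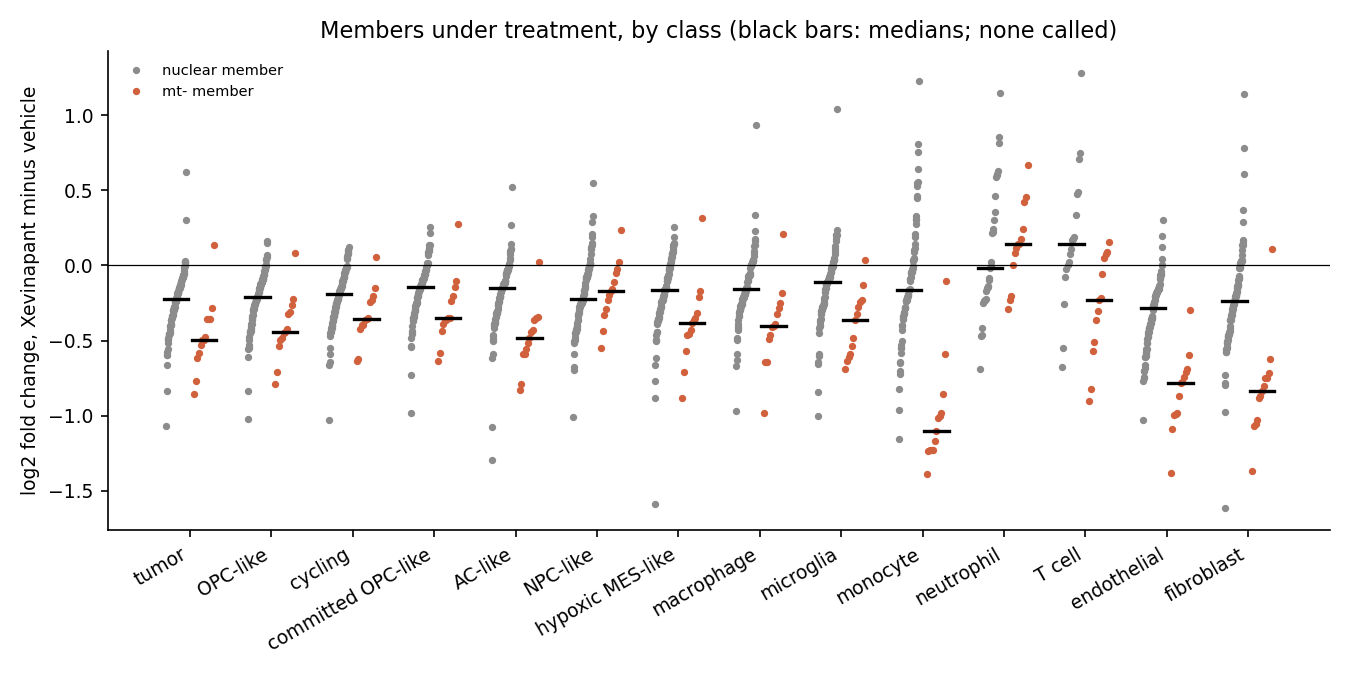
Log2 fold change of each tested member, Xevinapant minus vehicle, by class (grey nuclear, orange mt- members, black bars medians, none called by edgeR at an adjusted p of 0.05). Medians of mt- members lie below 0 in all classes except neutrophils, from -0.17 in NPC-like cells to -1.10 in monocytes.

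The study also looked at oxidative phosphorylation in CD4+ T cells under treatment. The T cell gate joins CD4+ and CD8+ cells, with 32 vehicle and 64 Xevinapant barcodes. NK cell genes kept out of the gates made 13.97 of 10000 UMIs in it and 40.8 in the NK cell gate. Of these Nkg7, which CD8+ T cells also express, made 12.4 and 23.0, Prf1 1.01 and 11.9, and Klre1 0.523 and 5.85, and their part was not tested. Units of vehicle 1+3 and vehicle 4 were set against both Xevinapant units. mt-Nd4 read 652 and 373 CPM in vehicle and 278 and 252 CPM in Xevinapant T cells (-0.90, SE 0.501). mt-Nd3 read 343 and 402 against 149 and 239 CPM (-0.82, SE 0.496), and mt-Co1 2092 and 1549 against 1021 and 1429 CPM (-0.51, SE 0.434). mt-Nd1, at 789 and 631 against 483 and 806 CPM, overlapped (-0.06, SE 0.443), and its sign turned without Xevinapant 1+2 (0.37), without vehicle 1+3 (0.0849) and with no filter on low counts (0.0833). Of 31 members tested among 998 genes (0% called), none passed, adjusted or unadjusted, by edgeR, and DESeq2 called none. Units did not overlap for 8 members that were lower (5 of them mt-), beside 19.3% of all genes, and for 2 that were higher, beside 13.7%. Those 2 were nuclear. Ndufb7 read 68.6 and 172 CPM in vehicle and 390 and 239 CPM in Xevinapant T cells (1.28, SE 0.637). This was the largest change of the 31 members. Cox7a2l changed by 0.71 (SE 0.515).

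Whether treatment acted differently between classes was tested as an interaction, for 5 tumor states against OPC-like cells and 7 lineages against tumor cells. Pericytes, with 1 vehicle unit, are left out. Only Ndufv3 passed, in NPC-like against OPC-like cells, where 1.36% of all genes did. With 1 of 105 members called, members passed no more often there than all genes. In NPC-like cells Ndufv3 read 349, 337 and 262 CPM in vehicle and 209 and 214 CPM in Xevinapant units, and in OPC-like cells 238, 218 and 171 against 197 and 194 CPM. The values did not overlap in NPC-like cells and did in OPC-like cells, and the difference of the fold changes was -0.45 (SE 0.111, edgeR adjusted p = 0.0443). For hypoxic MES-like against OPC-like cells no member passed, as for all genes (0%), and 2 of 105 members had an unadjusted p under 0.05, beside 3.91% of all genes. The median difference of the members was 0.05. Of the other 10 interactions 9 called 0% of all genes and that of neutrophils 0.0389%. Of 105 members, 20 had an unadjusted p under 0.05 for neutrophils (beside 8.49% of all genes), 12 for NPC-like cells (16.7%), 9 for T cells (5.31%), 5 for monocytes (4.06%) and none or 1 for the others (0.743% to 4.48%). Interactions were fitted in the main setting only, so neither DESeq2 nor any other alternative was run on them.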

How the data were processed

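Single-cell RNA of dissociated tumors was counted by the authors with a probe-based kit for fixed cells, and the deposited files are whole-number UMI counts per gene and barcode of 8 matrices. The submitters' processing notes name mm10 and Seurat. The labels give Cell Ranger v3.0, while the matrix headers give 7.1.0.

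The study's filters were applied: barcodes were dropped below 200 genes, below a complexity of 0.8, or with mt- genes above 10% of their UMIs, a limit that acts on the mt- members themselves. The study removed doublets with several callers; here no caller was run, 847 barcodes with markers of more than 1 lineage were left out, and 9604 without a gate were used in no class. Barcodes were gated by marker UMIs, with thresholds set after the marker counts were seen (hypoxic MES-like: 10 UMIs from 3 of 6 genes, with 14.6% of its barcodes under 2 times that minimum, beside 35.4% in the T cell, 28.9% in the pericyte, 26.7% in the microglia and 26.0% in the OPC-like gate and 5.45% to 19.9% in the others). Counts were summed per unit and class where at least 10 barcodes were present, and a treatment comparison needed 2 units per group.

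Tests were edgeR 4.0.16 quasi-likelihood fits (limma 3.58.1, R 4.3.3) with filterByExpr and TMM on all genes, Benjamini-Hochberg adjustment over all genes tested and a threshold of 0.05. Classes were compared with the unit as a block, tumor states against OPC-like cells and lineages against tumor cells. DESeq2 1.42.0 was an alternative, beside scaling, filters, gates, matrices as mice and leaving out units. Scripts were tested on simulated counts. Intervals and limits cover counting error only, and the files held 0 columns of other samples.

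Members and lists were chosen with earlier results of these data known. The text names all mt- members, isoform sets, and in each comparison the 3 called members that rose and fell most among those with a mean log2 CPM of at least 5; other members were named after their values were seen, to show their complex. The lists cover the HIF-driven switch, citric acid cycle, assembly factors and carriers, mitochondrial DNA expression and handling stress, each with its 3 called genes of largest change named for hypoxic MES-like cells; cytosolic ribosomal proteins had 0 genes among the features. Positions are from GENCODE M21 (GRCm38) and promoters from RefSeq (GRCm38.p6).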

Additional observations from a re-analysis of the deposited data

Results flagged for a closer look

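Ndufv3 was singled out because its response to Xevinapant differed between classes by a test of the difference itself. In NPC-like against OPC-like cells the difference of the log2 fold changes was -0.45 (SE 0.111, edgeR adjusted p = 0.0443). It was 1 of 105 members tested, while 1.36% of all genes passed, so members passed no more often than all genes. Unadjusted p-values under 0.05 (edgeR) were had by 12 of 105 members, beside 16.7% of all genes. No alternative setting was run on this test. Ndufv3 was lower in both Xevinapant units than in all 3 vehicle units of NPC-like cells, where it changed by -0.59, and changed by -0.13 in OPC-like cells. Neither change passed within its class. NPC-like barcodes numbered 37 in Xevinapant 1+2 and 50 in vehicle 4, and host neurons among them were not separated.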

How the results depend on the processing

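The fall of the chain in hypoxic MES-like cells was the steadiest result, with 76 to 89 members lower and 9 to 12 higher over all alternatives run. Of the counts and shares recomputed under alternatives, 241 stayed within 1.5 times or 1 SD and 56 moved. Of single members, 2130 kept sign and call, 92 lost the call, 12 gained it and 4 changed sign.

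Without TMM, members lower numbered 76 in AC-like, 84 in fibroblast, 66 in macrophage, 48 in microglia, 44 in monocyte and 55 in endothelial cells, and 2 were higher in cycling cells. DESeq2 gave 54 lower in fibroblast, 48 in macrophage, 42 in microglia, 39 in monocyte and 46 in endothelial cells, 33 higher in cycling cells, and under treatment 7 lower in tumor and 5 in hypoxic MES-like cells. With each matrix as 1 mouse, 39 were higher in cycling cells, 54 lower in fibroblast, 41 in endothelial and 20 in T cells, and under treatment 22 in tumor and 4 in hypoxic MES-like cells. With mt- genes left out, falls numbered 14 in macrophage, 11 in microglia and 12 in endothelial cells. With no mitochondrial limit they numbered 38, 32 and 29 in these, 29 in monocyte and 20 in T cells, and with a limit of 5% 30 in endothelial and 21 in T cells. Doubled gate thresholds gave 11 in macrophage, 8 in microglia, 14 in neutrophil and 5 in T cells. Gates per 10000 UMIs gave 16 in macrophage, 12 in microglia and 10 in endothelial cells, and 44 higher in cycling cells. Without the 5% of barcodes with most UMIs there were 11, 9 and 10 in these lineages. With no filter on low counts, 21 fell in T cells and 1 under treatment in hypoxic MES-like cells. The cause was not tested.

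Leaving out 1 unit at a time gave 76 to 83 lower and 9 to 11 higher in hypoxic MES-like cells. It gave 34 to 39 lower in AC-like, 34 to 41 in NPC-like and 18 to 29 in committed OPC-like cells. It gave 7 to 20 higher in cycling cells. In lineages it gave 23 to 38 lower in fibroblast, 14 to 37 in macrophage, 14 to 26 in microglia and 14 to 27 in monocyte barcodes. It gave 6 to 26 lower in endothelial, 18 to 35 in neutrophil and 6 to 18 in T cells. Under treatment it gave 0 to 1 in hypoxic MES-like cells, by leaving out vehicle 1+3. The mt- share of UMIs ran from 1.00193% to 1.11% in OPC-like and 0.634% to 0.698% in hypoxic MES-like cells, and the nuclear share from 1.47% to 1.54% and 1.16% to 1.21%. Where 1 unit was left in a group, it was taken to vary like the others.

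The change of mt-Nd6 with treatment in tumor cells was -0.0765 without Xevinapant 1+2 and up to 0.333 without vehicle 4. That of mt-Nd1 in T cells was 0.0833 with no filter on low counts, -0.539 without Xevinapant 3+4 and 0.374 without Xevinapant 1+2. No paired analysis was possible because the labels give 1 sample per group and do not tie a matrix number to an animal. Classes with few barcodes limit the depth, with 286969 UMIs for all T cells and 567248 for all pericytes.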
